A study of Mus musculus with 12 samples.

Results

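The genes described here are 38 mouse genes that mark lymphocytes and plasma cells, measured in whole liver after alcohol feeding. They were chosen by symbol as known marker genes, with no threshold on measured values, although earlier results of these data were known. All 38 symbols were found among the 54232 gene identifiers of the count table, 1 identifier each. They fall into 17 T cell genes, 10 natural killer (NK) and cytotoxic genes, 6 B cell genes, and 5 plasma cell and immunoglobulin genes.

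The study measured poly(A) RNA in livers of male C57BL6/J mice in a model of alcohol-associated steatohepatitis (ASH). For 8 weeks the 5 pair-fed (PF) mice received a high-fat liquid diet matched in calories, and the 7 alcohol-fed (AF) mice received high-fat liquid diet with ethanol by intragastric tube, raised to 27 g/kg/day, with a weekly ethanol binge of 5 g/kg. In the study's methods a first period held a solid Western diet rich in cholesterol and saturated fat, with regular chow as the alternative. The Western diet then went on beside the ethanol feeding. PF livers are controls for alcohol on a high-fat liquid diet. How far the solid food of PF mice was matched is not given in the sources used here. The labels give the age as 8-week and name no deletion or transgene in either group. The sample titles number the livers within each group, so replicates are taken as separate mice.

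T cells recognise antigen through a receptor that signals through the CD3 chains, with CD4 or CD8 as coreceptor on helper and cytotoxic cells. NK cells and cytotoxic T cells kill through perforin and granzymes. B cells carry membrane immunoglobulin with CD79A and CD79B as its signalling partners, and once they mature into plasma cells they secrete antibody, with kappa or lambda light chains and, in polymeric IgM and IgA, a joining chain.

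Of the 7 genes that passed the test between AF and PF livers, RefSeq promoter windows (GRCm38.p6) were at hand for Cd22 and Jchain. These are shown because Cd22 was the gene of the B cell class that rose and Jchain the joining chain gene that fell. Each runs from 250 bases before the start site to 50 bases after it, 5′ to 3′ on the gene's strand. The Cd22 window is chr7:30878979-30879278 and the Jchain window is chr5:88527848-88528147, both on the minus strand, and capitals mark the letters of the EBF1 motif, TCCC and GGGA set 2 bases apart.
Cd22: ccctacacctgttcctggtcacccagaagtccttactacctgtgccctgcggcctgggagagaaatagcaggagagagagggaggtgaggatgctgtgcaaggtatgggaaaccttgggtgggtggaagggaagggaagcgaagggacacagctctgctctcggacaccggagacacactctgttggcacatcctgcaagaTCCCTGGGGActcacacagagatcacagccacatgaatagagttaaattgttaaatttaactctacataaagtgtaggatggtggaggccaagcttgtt
Jchain: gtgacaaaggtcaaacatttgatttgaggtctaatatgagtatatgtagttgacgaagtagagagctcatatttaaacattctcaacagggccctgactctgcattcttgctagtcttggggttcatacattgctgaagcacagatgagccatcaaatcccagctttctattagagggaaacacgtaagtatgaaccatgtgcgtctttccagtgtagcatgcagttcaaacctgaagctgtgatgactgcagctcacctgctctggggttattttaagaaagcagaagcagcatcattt
Windows were found for 25 of the 38 genes, 30 windows in all, and both strands were searched for 5 motifs. The EBF1 letters, named for a B cell transcription factor, occurred in 0.904% of all 32851 RefSeq windows and in 1 of the lymphocyte windows, that of Cd22, starting at position -49 from the start site. The octamer ATGCAAAT occurred in 1.74% of all windows and in 0 of the 30. The letters GAGGAAGT of PU.1 (3.2% of all windows) were found at Cd5, TGTGGTTT of RUNX factors (1.78%) at Gzma, and AGGTGTGA of T-box factors (1.28%) at Nkg7. The Jchain window held none of the 5. These are matches of letters, and binding was not measured.

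The libraries held between 24129900 and 28594027 reads on genes in PF livers and between 25099033 and 30578639 in AF livers. Values are given as CPM, the library-scaled read count after TMM normalisation, and levels of different genes are compared only as TPM, which also divides by exon length. Of 14168 genes with enough reads to test, 5635 (39.8%) passed an edgeR adjusted p of 0.05, 3116 of them (22%) higher and 2519 (17.8%) lower in AF. The hepatocyte gene Alb was at 89801 ± 14949 CPM in PF and 59186 ± 17062 CPM in AF livers (SD, n = 5 and 7), so the tissue label fits its defining gene. The libraries did not fall evenly within the PF group. PF replicate 5 was the highest of all livers for 8 of 13 tested T cell genes, 3 of 4 B cell genes and 5 of 5 plasma cell genes. The neutrophil gene Mpo, at 41.2 CPM in PF replicate 1, was between 1.42 and 5.93 CPM in the other PF livers.

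Lymphocyte genes were scarce in these livers. The mean PF level of 23 of the 38 genes was under 1 TPM, and 10 had too few reads to enter the test. Igkc, Ighm and Jchain stood above the rest. Igkc, the kappa light chain constant gene, was at a mean of 526 TPM in PF livers, Ighm, the IgM heavy chain constant gene, at 82.5 TPM and Jchain at 15.4 TPM. The next levels were those of Nkg7, a granule protein gene of cytotoxic cells, at 3.80 TPM, Igha, the IgA heavy chain constant gene, at 3.34 TPM, and Zap70, the kinase behind the T cell receptor, at 3.23 TPM. The lowest level was that of Foxp3, the regulatory T cell factor, at 0.0375 TPM.

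Of the 28 genes tested, 2 rose (Icos and Cd22) and 5 fell (Cd4, Ighm, Igkc, Jchain and Mzb1), with edgeR's quasi-likelihood test and Benjamini-Hochberg adjustment over all 14168 genes. The risen share of 7.14% stood beside 22% of all tested genes, and the fallen share of 17.9% was that of all tested genes, 17.8%. By class, 4 of the 5 that fell were plasma cell and immunoglobulin genes. The median log2 fold change was -0.31 over the 28 genes and 0.04 over all genes. In whole tissue, fewer cells of a type and less RNA per cell cannot be told apart.

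**Figure D1:**
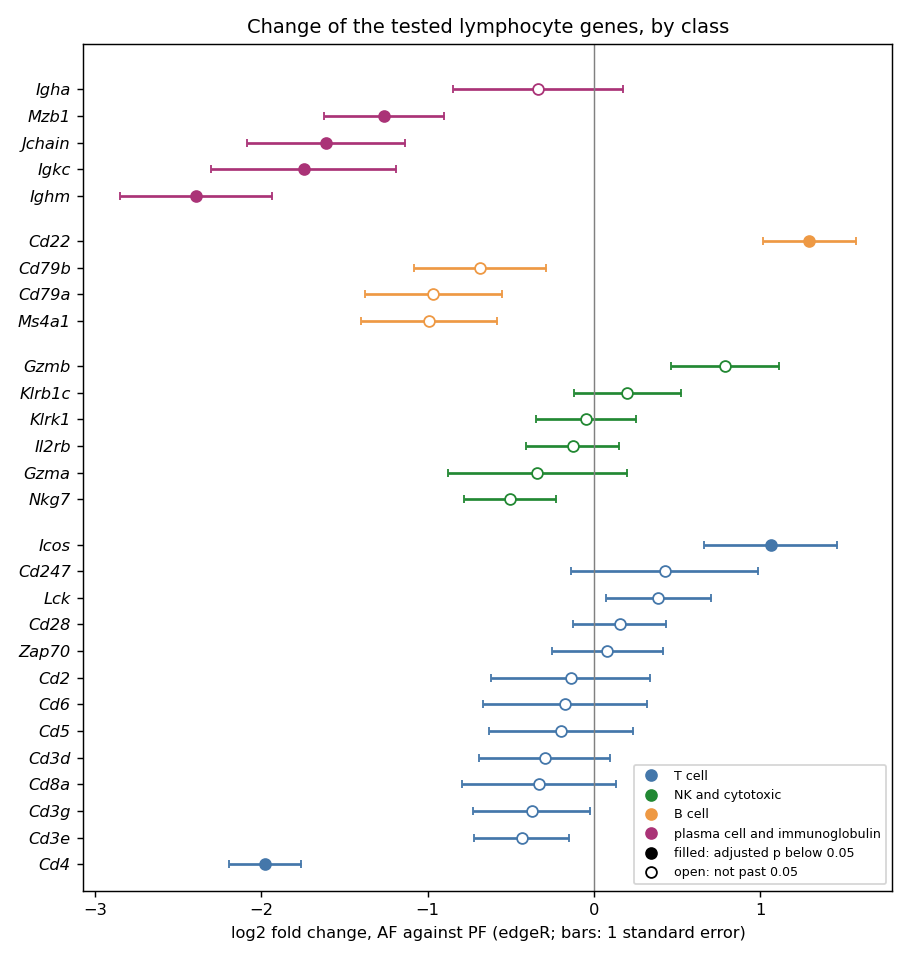
Log2 fold change of AF against PF livers (horizontal axis) for the 28 tested genes, grouped by class, with bars of 1 standard error from edgeR and filled points for an adjusted p below 0.05. The plasma cell genes lie to the left of 0, from -2.39 for Ighm to -0.34 for Igha, while most T and NK genes lie within their error of 0.

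Among T cell genes, Cd4, the helper T cell coreceptor that some mouse dendritic cells also carry, fell most clearly. Its PF values were 3.99, 3.16, 3.29, 3.07 and 5.20 CPM in replicates 1 to 5, and its AF values ran from 0.594 through a median of 0.968 to 1.22 CPM. Every AF liver lay below every PF liver, which held for 9.49% of all tested genes and for 1 of the 28 tested here. The mean went from 3.74 ± 0.894 to 0.949 ± 0.239 CPM (SD, n = 5 and 7), a 3.94-fold lower level (log2 fold change -1.98, SE 0.217, edgeR adjusted p = 3.97e-05). Cd4 (chr6:124864692-124888221 in GRCm38, GENCODE M21) passed the test in all 21 alternative analyses, the largest adjusted p being 9.59e-04.

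Icos, the inducible costimulator of activated T cells, rose. It was at 1.82, 2.06, 3.08, 1.69 and 2.76 CPM in PF livers, and its AF values ran from 1.86 through a median of 4.43 to 9.48 CPM. AF livers spread over a wide range, with 4 of 7 above all PF livers and the other three within the PF range. The mean went from 2.28 ± 0.609 to 4.78 ± 2.84 CPM, a log2 fold change of 1.06 (SE 0.402, edgeR adjusted p = 0.04996). That value sits at the threshold, and Icos (chr1:60977927-61000320) passed in 8 of 21 alternatives. Leaving out any 1 PF liver lost the call, with adjusted p from 0.0568 to 0.108, and so did leaving out AF replicate 2 (0.0928), 3 (0.101), 5 (0.0773) or 7 (0.0619).

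The CD3 and CD8 genes gave no call. The signalling chains Cd3d, Cd3e and Cd3g had log2 fold changes of -0.30, -0.44 and -0.38, and Cd8a, the cytotoxic coreceptor chain, had -0.33, with 95% intervals of -1.07 to 0.48, -0.99 to 0.12, -1.07 to 0.32 and -1.24 to 0.57. Without PF replicate 5 the values were 0.10 for Cd3d, -0.35 for Cd3e, -0.03 for Cd3g and -0.21 for Cd8a, so the direction of Cd3d turned. Cd3e was at 0.769 ± 0.244 CPM in PF and 0.569 ± 0.175 CPM in AF livers. Each interval spans 0 and reaches to about -1 on the log2 scale, so a change within it was not detectable here. The kinases Lck and Zap70, which start signalling below the receptor, had log2 fold changes of 0.39 and 0.08. Zap70, the most abundant T cell gene per length in PF livers, was at 4.41 ± 1.58 CPM in PF and 4.67 ± 2.07 CPM in AF livers.

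The other tested T cell genes were the receptor zeta chain Cd247, the surface receptors Cd2, Cd5 and Cd6, and the costimulator Cd28. They were at mean PF levels from 0.312 CPM (Cd247) to 0.576 CPM (Cd2). In all, 11 of 13 tested T cell genes were not called, with log2 fold changes from -0.44 to 0.42 and edgeR adjusted p from 0.236 to 0.863. The class median was -0.17, and it turned to 0.34 without PF replicate 5 and to 0.20 with library totals as the only scaling. Cd8b1, Cd27, Ctla4 and Foxp3 were not tested for want of reads. Ctla4, an inhibitory receptor, had 0 to 6 reads a liver in both groups, and Foxp3 had 1 to 4 in PF and 0 to 6 in AF livers. A count of 0 allows up to 3 reads, which is between 0.0778 and 0.148 CPM in these libraries.

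**Figure D2:**
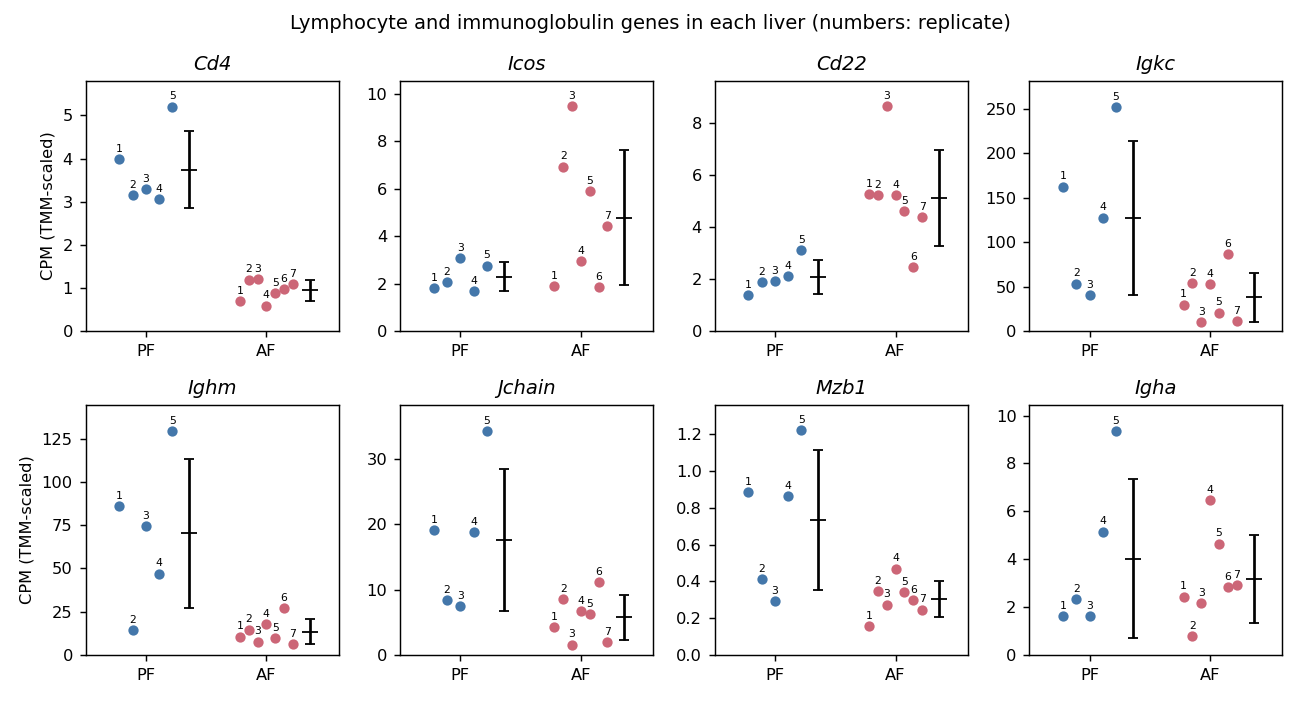
TMM-scaled CPM (vertical axis from 0) of 8 genes in each PF and AF liver, numbered by replicate, with the mean ± SD of each group. Cd4 shows a gap between groups, Cd22 overlaps only at AF replicate 6, and Ighm, Igkc, Jchain and Mzb1 show a wide PF spread with PF replicate 5 highest.

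NK and cytotoxic genes showed no call in either direction, against 39.8% of all genes called. The 6 tested genes had log2 fold changes from -0.51 to 0.79 and edgeR adjusted p from 0.0677 to 0.908, with a class median of -0.09 (0.07 without PF replicate 4, 0.10 without PF replicate 5 and 0.27 with library totals) and 1 gene at an unadjusted p under 0.05. DESeq2 and limma-voom, with and without quality weights, also called 0 higher. The gene with an unadjusted p under 0.05 was Gzmb, granzyme B, a killing protease. Its PF values were 0.591, 0.549, 1.04, 1.10 and 0.995 CPM, and its AF values ran from 0.856 through 1.23 to 2.69 CPM. The groups overlapped, and the log2 fold change was 0.79 (SE 0.324, edgeR adjusted p = 0.0677). It passed in 2 of 21 alternatives, with library totals as the only scaling (1.13, adjusted p = 0.0148) and without AF replicate 6 (0.88, adjusted p = 0.0356).

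Nkg7 had the lowest NK value, a log2 fold change of -0.51 (95% interval -1.05 to 0.04), and PF replicate 1 alone was at 3.05 CPM where the PF median was 1.13 CPM. Without that liver Nkg7 was at -0.14 and no longer the lowest. Gzma, granzyme A, had a log2 fold change of -0.34, with PF livers spread from 0.275 to 3.42 CPM, and it turned to 0.60 without PF replicate 4, the highest of them. The receptor genes Klrb1c (NK1.1), Klrk1 (NKG2D) and Il2rb (the beta chain shared by the receptors of IL-2 and IL-15) had 0.20, -0.05 and -0.13. Klrk1, at 4.14 ± 1.20 CPM in PF and 4.01 ± 1.77 CPM in AF livers, had the interval -0.64 to 0.54. The defining NK receptor Ncr1 (NKp46), the pore former Prf1 and the transcription factors Eomes and Tbx21 had at most 15 reads a liver and were not tested.

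Among B cell genes, Cd22 rose while the receptor components had values below 0. Cd22, an inhibitory coreceptor of B cells that binds sialic acid, was at 1.38, 1.88, 1.92, 2.12 and 3.12 CPM in PF livers, and its AF values ran from 2.46 through 5.22 to 8.66 CPM. Of the AF livers 6 of 7 lay above all PF livers, and AF replicate 6 lay within the PF range. No tested gene of the 28 had every AF liver above every PF liver, a pattern that 8.2% of all tested genes had. The mean went from 2.08 ± 0.642 to 5.12 ± 1.84 CPM, 2.46-fold higher (log2 fold change 1.30, SE 0.278, edgeR adjusted p = 0.00317). Cd22 (chr7:30865402-30880342, the gene of the first promoter window above) passed in all 21 alternatives, with adjusted p up to 0.0105. Per length Cd22 was at 0.912 TPM in PF and 3.14 TPM in AF livers, beside 1.13 and 0.748 TPM for Cd79a. Which cells the Cd22 reads came from was not tested. The exons of Cd22 share bases with Gm29439 on the opposite strand, and how the counting treated strand is not given in the sources used here.

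The B cell receptor partners and CD20 pointed the other way without passing. Ms4a1, the gene of CD20, was at 0.394, 0.458, 0.792, 0.944 and 1.72 CPM in PF livers and from 0.223 through 0.317 to 0.741 CPM in AF livers. The difference was -0.99 on the log2 scale (95% interval -1.79 to -0.19, edgeR adjusted p = 0.0676). Cd79a had -0.97 (-1.78 to -0.16, adjusted p = 0.0772) and Cd79b -0.69 (-1.46 to 0.09, adjusted p = 0.181). For all of them the groups overlapped and PF replicate 5 was the highest liver. Without that liver the log2 fold changes were -0.59 for Ms4a1, -0.72 for Cd79a and -0.39 for Cd79b (edgeR adjusted p = 0.256, 0.217 and 0.474). Ms4a1 and Cd79a passed in limma-voom with sample quality weights (adjusted p = 0.0249 and 0.0247). In edgeR Ms4a1 also passed without PF replicate 1 (0.0410) or AF replicate 5 (0.0392), and Cd79a without AF replicate 2 (0.0261). The complement receptor Cr2 and the B lineage factor Pax5 had at most 30 reads a liver and were not tested.

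Of the plasma cell and immunoglobulin genes 4 of 5 fell, where 17.8% of all tested genes did, and Igha did not pass. The class median was -1.61, the lowest of the 4 classes. Ighm was at 86.2, 14.1, 74.3, 47.0 and 129 CPM in PF livers and ran from 6.40 through 10.6 to 26.9 CPM in AF livers. PF replicate 2 lay among the AF livers, and the other PF livers were above all of them. The mean went from 70.2 ± 43.2 to 13.4 ± 7.14 CPM, 5.26-fold lower (log2 fold change -2.39, SE 0.455, edgeR adjusted p = 0.0016). Ighm (chr12:113418558-113422730) passed in all 21 alternatives, with adjusted p up to 0.0113.

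Igkc was at 163, 53.6, 40.7, 128 and 251 CPM in PF livers and ran from 10.1 through 29.8 to 86.7 CPM in AF livers. PF replicates 2 and 3 lay within the AF range. The mean went from 127 ± 86.0 to 37.98 ± 27.96 CPM, 3.35-fold lower (log2 fold change -1.74, SE 0.557, edgeR adjusted p = 0.0244). Igkc (chr6:70726435-70726966) is a single constant exon shared by kappa light chains, whatever their variable segment.

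Jchain was at 19.1, 8.37, 7.46, 18.8 and 34.3 CPM in PF livers and ran from 1.58 through 6.24 to 11.2 CPM in AF livers. AF replicate 6, the highest AF liver, was also the highest AF liver for Ighm and Igkc. The mean went from 17.6 ± 10.8 to 5.77 ± 3.47 CPM, 3.06-fold lower (log2 fold change -1.61, SE 0.476, edgeR adjusted p = 0.0169). The gene (chr5:88519809-88527891) is that of the second promoter window above.

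Mzb1, a helper of antibody folding in the endoplasmic reticulum of B and plasma cells, was at 0.886, 0.412, 0.292, 0.865 and 1.22 CPM in PF livers. Its AF values ran from 0.156 through 0.298 to 0.469 CPM, so the groups overlapped at PF replicates 2 and 3. The log2 fold change was -1.26 (SE 0.362, edgeR adjusted p = 0.0147). With 6 to 27 reads a liver this is the least deeply counted of the called genes, and its exons share bases with SPATA24 on the same strand. Mzb1 passed in 16 of the 19 alternatives that tested it and missed with library totals as the only scaling (-0.91, edgeR adjusted p = 0.0533). Without AF replicate 4 or 5 it had too few reads to be tested.

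These calls leaned on PF replicate 5 to different degrees. Without it Igkc was at -1.34 (edgeR adjusted p = 0.0810), Jchain at -1.23 (0.0621) and Mzb1 at -1.01 (0.0533), while Ighm and Cd4 still passed, so 2 genes fell in place of 5. Igkc also missed without PF replicate 1, narrowly (-1.64, adjusted p = 0.0501). The direction of these called genes was the same in each of these cases.

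Igha was the exception in its class. It was at 1.62, 2.33, 1.63, 5.15 and 9.37 CPM in PF livers and ran from 0.770 through 2.83 to 6.47 CPM in AF livers. The groups overlapped, with AF replicate 2 below all PF livers, and the log2 fold change was -0.34 (95% interval -1.34 to 0.66, edgeR adjusted p = 0.620), or 0.04 with library totals as the only scaling and 0.24 without PF replicate 5. Of the class's reads Igha made up between 0.601% and 2.96% in PF livers and between 0.984% and 12.7% in AF livers. The log2 ratio of Igha to Ighm reads within a liver was -4.15 ± 1.39 in PF and -2.15 ± 1.17 in AF livers, a difference of 2.01 with 5 of 7 AF livers above all PF livers. It missed the threshold in an exact two-sided permutation test (p = 0.0265, adjusted over 15 ratios 0.0795).

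**Figure D3:**
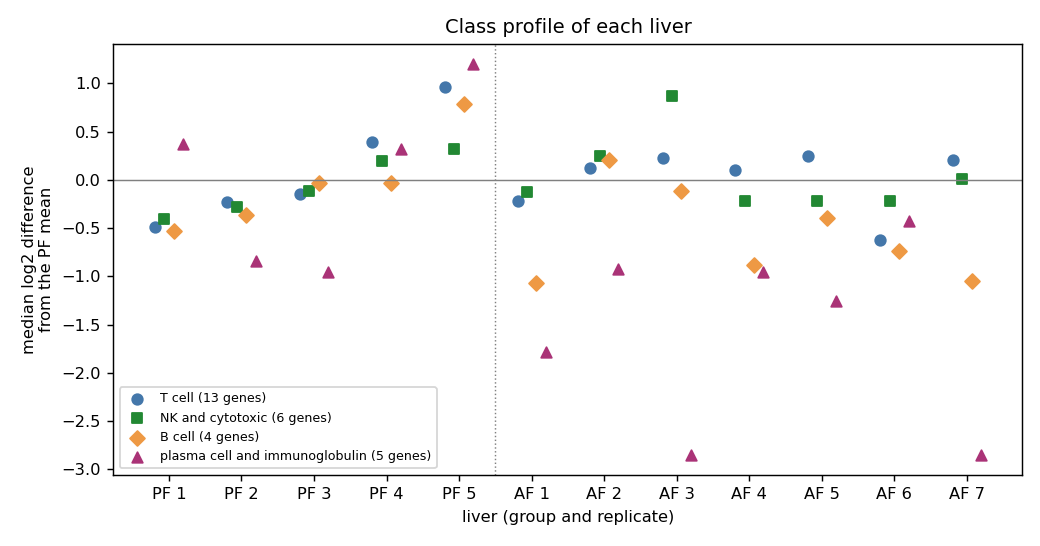
Median over each class's tested genes of the log2 difference from the PF mean (vertical axis), for each liver. The plasma cell median runs from 1.21 in PF replicate 5 to -2.86 in AF replicate 3, while the T cell medians of both groups overlap and the highest NK median is 0.87 in AF replicate 3.

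Summed by class, the values per liver showed the same contrast. The 5 plasma cell genes summed to 270, 78.8, 124, 199 and 426 CPM in PF livers and from 21.8 through 47.1 to 128 CPM in AF livers, with PF replicates 1, 4 and 5 above all AF livers. The 17 T cell genes summed to 14.1 to 23.3 CPM in PF and 10.6 to 22.9 CPM in AF livers. Within that sum the mean of Cd4 went from 3.74 to 0.949 CPM and that of Icos from 2.28 to 4.78 CPM. The 10 NK genes summed to 9.56 to 16.2 and 8.55 to 18.4 CPM, and the 6 B cell genes, with Cd22 among them, to 3.99 to 9.73 and 4.21 to 12.4 CPM. For T, NK and B cell sums the AF range covered most or all of the PF range. A sum can hide members that moved apart. In the B cell sum the mean of Cd22 went from 2.08 to 5.12 CPM, while Cd79a, Cd79b and Ms4a1 had lower means in AF.

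The 10 genes not tested were also fitted with a filter of 1 read in any library. None was called (edgeR adjusted p 0.364 to 0.991), and they had 0 to 30 reads a liver.

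Set against Ptprc, the gene of the leukocyte antigen CD45, Cd3e, Cd79a and Jchain were lower in AF livers. Ptprc itself was at 39.6 ± 10.9 CPM in PF and 60.9 ± 22.3 CPM in AF livers (log2 fold change 0.62, edgeR adjusted p = 0.0592). The log2 ratio of Cd3e to Ptprc reads within a liver was -5.66 ± 0.257 in PF and -6.69 ± 0.267 in AF livers, with 7 of 7 AF livers below all PF livers. The exact two-sided permutation p was 0.00126, the smallest that 792 splits allow, and 0.0189 after adjustment over 15 ratios. Cd79a to Ptprc was lower by -1.62 on the log2 scale (7 of 7 below, exact permutation adjusted p = 0.0316) and Jchain to Ptprc by -2.26 (6 of 7 below, exact permutation adjusted p = 0.0316). Ncr1 to Ptprc differed by -0.82 and missed (exact permutation adjusted p = 0.133). Without single PF livers, Cd79a to Ptprc missed for replicates 1, 2, 3 and 5 (adjusted p 0.0606 to 0.0909) and Jchain to Ptprc for replicates 1, 2 and 5 (0.0606 to 0.0909). These ratios share Ptprc, so they are not independent of each other.

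A lower ratio to Ptprc was common among all genes. Of the 28 tested lymphocyte genes 85.7% had a lower mean ratio to Ptprc in AF livers (median difference -0.76 on the log2 scale), beside 79.8% of the 14167 tested genes without Ptprc (median -0.56). All 7 AF livers lay below all PF livers in this ratio for 5 of the 28 genes (17.9%), beside 8.34% of all. Over all 38 genes 34 had a lower ratio and 4 a higher one, namely Cd22 (0.67), Cd247 (0.40), Icos (0.27) and Gzmb (0.14). Macrophage and pan-leukocyte lists held more risen genes than the 22% of all tested genes, and the other myeloid lists did not. Of 10 Kupffer cell genes 7 rose, and their sum ran from 784 to 1107 CPM in PF and from 1146 to 3219 CPM in AF livers. Of 10 recruited macrophage genes 5 rose, with sums of 290 to 826 and 647 to 2960 CPM, and 5 of 9 pan-leukocyte genes rose, with sums of 301 to 433 and 393 to 849 CPM. Of 8 conventional dendritic cell genes 1 rose, while the 10 neutrophil genes had edgeR adjusted p of 0.0584 or more (4 at an unadjusted p under 0.05), a median log2 fold change of -1.48 and sums of 53.5 to 957 CPM in PF and 32.3 to 194 CPM in AF livers. Among the further lists, 6 of 8 stellate cell and fibroblast genes, 4 of 5 tested bile duct genes and 4 of 6 proliferation genes rose. Of 6 sinusoidal endothelial genes 1 rose, and 3 of 10 hepatocyte genes fell, where 17.8% of all tested genes did. No gene of the Kupffer cell, recruited macrophage and pan-leukocyte lists was at 0 reads in any liver. The part of all these lists in the ratios to Ptprc was not tested.

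**Figure D4:**
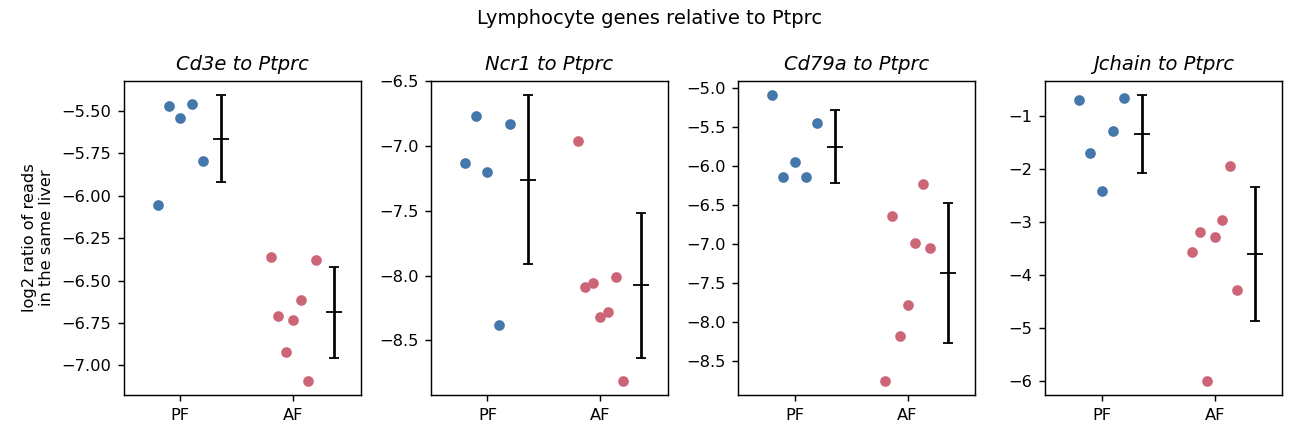
Log2 ratio of Cd3e, Ncr1, Cd79a and Jchain reads to Ptprc reads in the same liver (vertical axis), with the mean ± SD of PF and AF livers. All AF livers lie below all PF livers for Cd3e and Cd79a, 6 of 7 do for Jchain, and the groups overlap for Ncr1.

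No ratio between lymphocyte genes, Igha to Ighm above among them, passed after adjustment with all livers. Cd8a to Cd4 was -2.49 ± 1.06 in PF and -0.74 ± 0.896 in AF livers, a difference of 1.75 that missed after adjustment (exact permutation p = 0.0189, adjusted 0.0710). Cd79a to Cd3e differed by -0.60 and Jchain to Cd79a by -0.64 (exact permutation adjusted p = 0.552 and 0.514). For the ratios Cd8b1 to Cd8a, Foxp3 to Cd3e, Ctla4 to Cd3e, Gzmb to Prf1, Gzma to Prf1, Ncr1 to Cd3e and Igkc to Iglc2 the exact permutation adjusted p was 0.893.

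Other lymphocyte genes on lists of the same cell types were examined beside the 38. Of 65 tested, 13 rose (20%) and 8 fell (12.3%), where 22% and 17.8% of all genes did. Of 7 tested antibody constant genes on the list of other plasma cell genes, 5 fell, and Ighg2c and Ighg3 did not pass (edgeR adjusted p = 0.208 and 0.592). Ighg1, the IgG1 constant gene, was at 102, 20.8, 14.3, 35.2 and 86.0 CPM in PF livers and from 0.851 to 11.8 CPM in AF livers, so all 7 AF livers lay below all PF livers (log2 fold change -3.07, edgeR adjusted p = 0.0017). Ighg2b had -1.97 (adjusted p = 0.0189). The lambda light chain genes Iglc1 and Iglc2 had -2.17 and -1.83 (adjusted p = 0.0152 and 0.0123). These constant genes have close relatives, and how reads were divided among them was not tested. The whole list had 5 of 13 tested genes lower, 2 higher and 6 not called, with log2 fold changes from -3.07 to 1.69. The 2 higher genes were not antibody constant genes, so the list did not move in 1 direction.

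Other B cell genes split, with 4 higher and 2 lower of 11 tested. Ighd, the IgD constant gene of mature naive B cells, fell (-1.54, edgeR adjusted p = 0.0044), as did the transcription factor Spib (-0.95, 0.0452). Cd72, an inhibitory coreceptor like Cd22, rose from 4.98 ± 0.901 to 19.7 ± 8.31 CPM (1.99, adjusted p = 3.96e-04) in 7 of 7 AF livers. Ly6d, a surface antigen of early B cells that epithelial cells also carry, rose from 0.745 ± 0.294 to 81.4 ± 26.6 CPM (6.76). The other pair that rose was Btk, a kinase of B cell receptor signalling also used in myeloid cells (0.84, 0.0144), and the scaffold gene Bank1 (0.67, 0.0480). Whether the reads of the risen and the fallen B cell genes came from the same cells was not tested.

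The 4 tested T cell receptor constant genes had edgeR adjusted p from 0.228 to 0.954, and the 5 tested T cell transcription factors from 0.300 to 0.926. Among signalling and activation genes Lcp2, an adaptor also used in myeloid cells, rose (0.75, edgeR adjusted p = 0.0120), as did the checkpoint receptor Havcr2 (1.52, 0.0295) and the ectonucleotidase Entpd1 (0.83, 0.0030). Of 9 tested homing genes 3 rose, among them the IL-7 receptor gene Il7r (2.21, 0.0237) and the chemokine receptor Cxcr3 (0.86, 0.0499). Among other NK genes the integrin Itga2 rose (1.68, 0.0476) and S1pr5, a receptor by which NK cells leave tissue, fell from 5.32 ± 1.61 to 2.39 ± 0.901 CPM (-1.16, 0.0072). The list a gene is on does not show which liver cells carried its reads. For Havcr2, Entpd1, Itga2 and the others named here this was not tested. With a filter of 1 count in any library, the calls of Cxcr3 (edgeR adjusted p = 0.0949), Itga2 (0.0542), Bank1 (0.0557) and Spib (0.0966) were lost. That filter gained 4 calls, chosen for naming after their values were seen. They were the costimulator Tnfrsf9 (2.99, edgeR adjusted p = 0.0046, 0 to 2 reads a liver in PF and 3 to 12 in AF), and the lower Cxcr5 (-1.41, 0.0463), Fcmr (-1.74, 0.0392) and Fcer2a (-1.64, 0.0392).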

How the data were processed

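Poly(A) RNA of 12 livers was sequenced from TruSeq stranded libraries. Per the submitters' processing notes the authors used FastQC 0.10.1, TopHat2 2.0.13 and HTSeq 0.10.0 on GRCm38 and deposited raw read counts per Ensembl gene. The annotation and strand setting of the counting are not given in the sources used here, and without them overlapping genes cannot be separated. Symbols came from GENCODE M21, which named 54165 of 54232 identifiers. Groups came from the sample labels.

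Counts were tested with edgeR 4.0.16 in R 4.3.3 (TMM scaling, filterByExpr, quasi-likelihood test, Benjamini-Hochberg adjustment over 14168 genes), and the steps were tested on simulated data. The members and lists were chosen with earlier results of these data known. The plan was to name all 38 genes, the genes of 15 ratios and, from each further list, up to 4 genes of largest change past the threshold. More were named from the list of other B cell genes, and fewer or none from some lists, which are given by counts. Mpo, Ighg2c and Ighg3 were named though they did not pass. The lowest mean squared difference within a group was 21.3 times counting noise over the 31 pairs within groups, so none of these pairs was a duplicate. Ratios within a liver used log2 of reads plus 0.5 and an exact two-sided permutation test over 792 splits. Alternatives were other scalings, DESeq2 1.42.0, limma-voom (limma 3.58.1), other filters, a replicate block and leaving out each liver. Lists of the other T cell, NK, B cell, plasma cell and immunoglobulin transport genes and of leukocyte, macrophage, neutrophil, dendritic, hepatocyte, endothelial, stellate, bile duct and proliferation genes were fitted with them.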

Additional observations from a re-analysis of the deposited data

Results flagged for a closer look

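Within a group, the gap between a liver at one end and its nearest neighbour was compared with the whole range of the group by Dixon's test, for each of the 38 genes in both groups. Of 76 such groups of values 8 held a liver beyond the limit, where chance gives about 1 in 20, or 3.8. PF replicate 5 stood high for Cd5 (0.860 CPM), Klrk1 (6.20 CPM) and Cd79b (2.49 CPM). In other PF livers, replicate 1 was high for Nkg7 (3.05 CPM), replicate 4 was high for Gzma (3.42 CPM) and replicate 3 was low for Klrb1c (0.292 CPM). AF replicate 3 stood high for Foxp3 (0.182 CPM, 6 reads) and Cr2 (0.911 CPM, 30 reads). None of the genes called between AF and PF livers was among them.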

How the results depend on the processing

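Of the values of single genes under the alternatives, 516 kept direction and side of the threshold, 7 newly passed and 19 no longer passed in the same direction, and 34, of 11 genes that passed in neither case, changed sign. The T cell count of 1 higher gene (Icos) was 0 with RLE scaling, limma-voom, a filter of 1 count in any library or a mean of 10 counts, and 0 to 1 leaving out each liver. The NK count of 0 higher was 1 (Gzmb) with library totals and 0 to 1 leaving out each liver. Library totals moved the median of all genes by 0.36, with 6458 higher and 938 lower calls over all genes where TMM gave 3116 and 2519. Genes lower numbered 7 in limma-voom with sample quality weights, adding Cd79a and Ms4a1, and 2 to 6 leaving out each liver, with 2 without PF replicate 5. Related genes higher numbered 20 with library totals, 7 with limma-voom and 7 to 17 leaving out each liver (7 without PF replicate 2 or 3), and related genes lower 4 to 10 (4 without PF replicate 5). Leaving out each liver, the log2 ratio differences were 1.40 to 2.14 for Cd8a to Cd4 (past the threshold without PF replicate 4 or AF replicate 6), 1.62 to 2.40 for Igha to Ighm (past it without AF replicate 2), -1.09 to -0.69 for Ncr1 to Ptprc (past it without PF replicate 4), -1.81 to -1.39 for Cd79a to Ptprc and -2.53 to -1.86 for Jchain to Ptprc.

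Replicate numbers are shared between groups but did not pair the livers (correlation of same-numbered deviations from -0.0749 to 0.117). With a replicate block 2 genes were higher and 4 lower, Mzb1 losing its call. Over the 5 numbered pairs sign flips allow no p below 0.0625, so Cd3e to Ptprc (-1.005), Cd79a to Ptprc (-1.91) and Jchain to Ptprc (-2.45) could not pass.

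Of the 38 genes 10 had too few reads to be tested. The intervals of the CD3 genes span 0, and how far read depth or the spread between livers sets their width was not tested. Liver tissue was not sorted, and cell numbers were not measured.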
